A study of Mus musculus with 15 samples.

Results

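Wild-type (WT) macrophages of the brain were compared with WT macrophages of the liver from mice 1 month old. The comparison took every WT sample of that age, which gave 2 brain samples (WT 4 and WT 5) and 3 liver samples (WT 3, WT 4 and WT 5), 5 of the 15 samples in the study. The study set macrophages that carry the kinase mutant BRAF V600E, called VE, against WT macrophages, in brain and liver at 1 month and in brain at 6 months, and its design text places the brain samples in the brain stem. The source labels read BRAFWT microglia for the brain samples and BRAFWT liver macrophage for the liver samples.

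Per the labels' protocols, the cells were sorted from Csf1rMeriCreMer; BRAFLSL-V600E; Rosa26LSL-YFP mice, that is, Csf1r drives an inducible Cre in macrophages and their precursors, which can switch on BRAF V600E and the fluorescent protein YFP. The gate was YFP and F4/80, and 1 protocol text covers every sample. The labels do not say which of these alleles the WT mice carried, which inducer was given and when, or whether the WT cells were sorted on YFP. The 5 samples therefore share an F4/80 sort, and whatever the WT mice carried was shared by both organs as far as the labels tell. Sex, strain background and the number of animals behind a sample are not given in the labels, so p-values here speak only of how much these samples vary, which could be technical in part.

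Microglia are the macrophages of brain tissue. They arise from yolk sac progenitors, settle early and maintain themselves, and TGF-beta signalling together with the transcription factor SALL1 keeps their gene programme. Kupffer cells line the sinusoids of the liver, where they meet portal blood, take up bacteria and aged red cells, and recycle iron. Their programme depends on the nuclear receptor LXR-alpha and on Notch and BMP or TGF-beta signals from neighbouring endothelial and stellate cells.

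Values are TPM, a length-scaled abundance that sums to the same total in every library, so the depth behind a value is unknown and levels of different genes can be set side by side. Most samples were deposited as 2 repeat columns, which were averaged. Of 39017 listed genes, 8912 to 9849 had at least 1 TPM in a brain column and 10909 to 11289 in a liver column. Across the tested genes, repeat columns of 1 brain sample had Spearman correlations of 0.644 to 0.657, no higher than the 0.652 to 0.672 between columns of different brain samples. In liver these values were 0.818 to 0.855 and 0.819 to 0.860. The SD between samples on log2(TPM + 1), taken as the median over genes, was 0.585 in brain and 0.397 in liver, so a single brain value is the less certain of the pair. Of the 256 genes followed singly, 40 had a brain sample whose columns lay more than 10-fold apart, with the higher above 20 TPM and 1 TPM added to the lower. An exact 0 is given only as listed at 0, because Rps27, a ribosomal protein gene that every cell uses, was also listed at 0 in all 5 samples. The library kit keeps no strand information, so reads of a gene and of a neighbour that overlaps it cannot be separated, and close paralogs may share reads.

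The test, limma on log2(TPM + 1), took the 13029 genes that reached 1 TPM in 2 or more of the 5 samples. At an adjusted p under 0.05, 3436 genes differed between the organs, or 26.4% of those tested. Of these, 1940 (14.9% of those tested) were higher in brain and 1496 (11.5%) were lower. The split depends on the scaling. The median log2 fold change of all tested genes was 0.26 in the TPM values. Median-ratio scaling moved it by -0.34 and called 1273 genes higher and 1801 lower, and quantile normalization moved it by -0.16 and called 1524 higher and 1463 lower. Fold changes smaller than these shifts therefore carry no direction, and the results below rest on larger ones unless the text says otherwise. Leaving out 1 liver sample gave 1719 to 2402 calls, the lowest without liver WT 4. Of 190 called genes followed singly, 151 of the 188 that could be tested passed with the last repeat column alone and 164 of 187 with the first. Of the 190, 155, 153 and 163 still passed without liver WT 3, WT 4 or WT 5. Leaving out a brain sample leaves 1, so the spread then comes from the liver samples alone. Counts given below without a brain sample therefore do not show how far the calls depend on the brain samples. A fold change here is the difference between organ means of log2(TPM + 1), brain over liver, which understates the change of low genes.

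**Figure D1:**
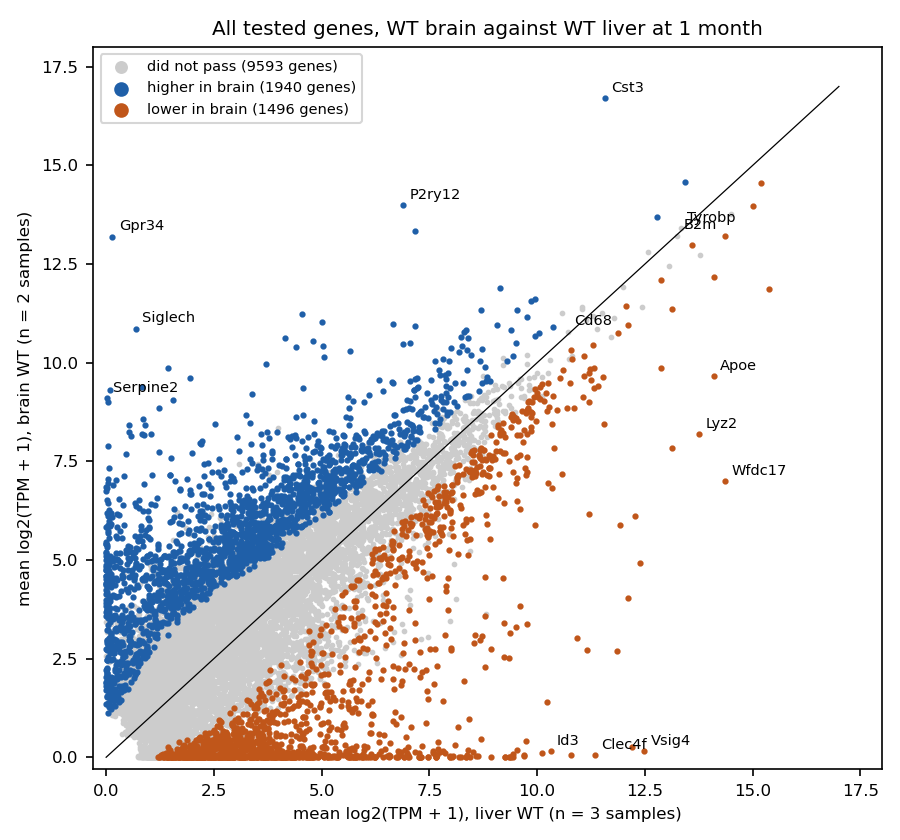
Mean log2(TPM + 1) of each tested gene in the 3 liver samples (x axis) and the 2 brain samples (y axis), with 1 point per gene. Blue points (1940) are genes higher in brain, orange points (1496) are genes lower in brain, grey points did not pass, and the line marks equal levels. Gpr34 and Vsig4 lie along the edges of the plot, near 0 in the other organ, while Tyrobp, B2m and Cd68 lie near the line.

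The largest differences sat in genes that made up much of the RNA. A log2 fold change of at least 4 was reached by 272 called genes in the direction of brain (2.09% of those tested) and by 348 in the direction of liver (2.67%). The 272 genes held 18.3% and 19.9% of all TPM in the brain samples and 0.404% to 0.445% in the liver samples. The 348 genes held 15.1% to 16.1% of all TPM in liver and 0.22% and 0.322% in brain. Much of the brain share was Cst3, the gene of the protease inhibitor cystatin C, which was the most abundant transcript in brain at 101933 and 112360 TPM, 10.7% of the total, against 2884, 3086 and 3218 TPM in liver. In liver the most abundant transcript was Ftl1, the light chain of the iron store ferritin, at 41362, 40705 and 46034 TPM (4.27% of the total) against 3287 and 4192 TPM in brain. Many called genes were near 0 in the other organ: 854 of the 1496 lower genes stood under 1 TPM in both brain samples, and 374 of the 1940 higher genes stood under 1 TPM in all 3 liver samples. These counts cannot be compared between the organs. To be tested, a gene found only in brain had to reach 1 TPM in both brain samples, while a gene found only in liver needed 2 of the 3 liver samples.

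The brain samples carried the microglial programme. Of 34 microglia identity genes, all were tested, 32 were higher in brain and none was lower. The median log2 fold change was 5.57. These counts describe the cells the label names and are set beside the 14.9% of all tested genes that were higher in brain. The counts were 20 higher and 0 lower without brain WT 4 and 18 higher and 1 lower without brain WT 5. A gene of the list found only in brain needs both brain samples to meet the TPM filter, so leaving out either removes such genes from the test. In bulk samples, fewer cells of a type and less RNA per cell cannot be told apart, here and below.

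Among the surface receptors, P2ry12, the ADP receptor that guides microglial processes towards injury, stood at 16768 and 15689 TPM in the brain samples and 124, 110.4 and 118 TPM in the liver samples (log2 fold change 7.10, SE 0.14, limma adjusted p = 3.25e-05). Its level made it the fifth most abundant transcript in brain. Gpr34, a lysophosphatidylserine receptor on the X chromosome (chrX:13632089-13640858, GRCm38), stood at 9314 and 9413 TPM in brain and 0.0128, 0.321 and 0.0113 TPM in liver (log2 fold change 13.05, SE 0.30, limma adjusted p = 4.20e-05). This was the largest fold change among called genes that have a symbol and whose samples do not overlap. Siglech, a sialic acid-binding lectin, stood at 1974 and 1761 TPM in brain and 0.838, 0.644 and 0.380 TPM in liver (log2 fold change 10.18, SE 0.34, limma adjusted p = 1.03e-04). In these receptors the brain samples lay close together and far from every liver sample. Tmem119, a microglial membrane protein, was at 719 and 1216 TPM in brain and 0.162, 4.65 and 2.03 TPM in liver (log2 fold change 8.43, SE 0.73, limma adjusted p = 0.00198). Fcrls, an Fc receptor-like surface protein, was at 609.5 and 435 TPM against 0.0468, 0.0308 and 0 TPM (log2 fold change 8.97, SE 0.43, limma adjusted p = 2.93e-04). Trem2, a lipid-sensing receptor, and Cx3cr1, the fractalkine receptor, were not absent from liver. Trem2 was at 1182 and 1540.4 TPM in brain and 15.5, 12.5 and 41.2 TPM in liver, and Cx3cr1 at 366 and 452 TPM and 19.1, 38.2 and 15.9 TPM. Both were higher in brain in every sample, with log2 fold changes of 6.00 and 4.10 (limma adjusted p = 0.00213 and limma adjusted p = 0.00351). Gpr84, a receptor for medium-chain fatty acids that inflamed microglia raise, did not pass (log2 fold change 1.62, SE 1.38, limma adjusted p = 0.43) and stood at 2.29 and 78.8 TPM in the brain samples.

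Among the transcription factors of the list, Sall1, which represses other macrophage programmes in microglia, was at 75.3 and 96.8 TPM in brain and 0.0206, 0.0276 and 0.0178 TPM in liver (log2 fold change 6.40, SE 0.48, limma adjusted p = 0.00135). Mef2c stood at 75.97 and 81.03 TPM in brain and 2.51, 0.0503 and 0.304 TPM in liver (log2 fold change 5.56, SE 0.68, limma adjusted p = 0.00527), and its relative Mef2a at 226 and 133 TPM and 33.6, 28.7 and 47.1 TPM (log2 fold change 2.25, SE 0.37, limma adjusted p = 0.0118). Sall3 and Bhlhe41 passed in the same direction, with log2 fold changes of 3.72 and 3.58. Hes6 did not pass, and its brain values of 2.56 and 80.8 TPM lay on both sides of the liver values of 17.3, 12.9 and 17.2 TPM.

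All 12 secreted proteins and enzymes of the list passed. Sparc, a matrix-binding glycoprotein, was at 1044 and 1828 TPM in brain and 31.3, 29.03 and 35.4 TPM in liver. Serpine2, a protease inhibitor, was at 489 and 612 TPM in brain and 0.0107, 0.0104 and 0 TPM in liver, and Olfml3 at 272 and 538 TPM and 1.10, 0.00326 and 1.84 TPM. The log2 fold changes were 5.40 for Sparc, 9.09 for Serpine2 and 7.72 for Olfml3.

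Syngr1, a synaptogyrin, was on the list and among the 10 largest higher calls, at 582 and 697 TPM in brain and 0.164, 0.00671 and 0.0180 TPM in liver. Of the same 10, 3 genes are not on the list. They were Susd3 (454 and 261 TPM in brain, 1.43, 0.135 and 0.0781 TPM in liver), Gal3st4, a sulfotransferase (273 and 205 TPM and 0, 0.0678 and 0.0196 TPM), and Ighj1, a joining segment of the immunoglobulin heavy chain locus. Ighj1 was at 299 and 1507 TPM in brain and 0, 4.63 and 0 TPM in liver (log2 fold change 8.56, SE 1.06, limma adjusted p = 0.00548). Both brain values of Ighj1 came from 1 repeat column each, at 588.1 against 10.77 TPM in WT 4 and 3003.8 against 10.77 TPM in WT 5, and with the last column alone the fold change was 2.44 and did not pass (limma adjusted p = 0.209). Among abundant genes, Rnase4, a secreted ribonuclease, was at 2132 and 2676 TPM in brain against 10.3, 21.5 and 48.1 TPM in liver. Selplg, the P-selectin ligand, was at 1544 and 2820.2 TPM against 24.5, 42.6 and 29.4 TPM, and Cd9, a tetraspanin, at 1482 and 1671 TPM against 10.6, 17.3 and 25.7 TPM. Scoc and Lpar6, a lysophosphatidic acid receptor, completed that group, with log2 fold changes of 5.75 and 4.31. These genes were picked from calls whose brain and liver samples do not overlap, so their separation was required by the rule.

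The liver samples carried the Kupffer cell programme, and the brain samples carried little of it. Of 34 Kupffer cell identity genes, 32 were lower in brain and the median log2 fold change was -6.63, beside 11.5% lower among all tested genes. Summed over the list, TPM was 1050 and 786.1 in the brain samples and 67000, 67340 and 58480 in the liver samples. Slc1a3, a glutamate transporter, went the other way, at 159 and 274 TPM in brain and 16.7, 15.5 and 9.41 TPM in liver (log2 fold change 3.86, SE 0.41, limma adjusted p = 0.00385). This gene is also a marker of astrocytes. Kcna2, a potassium channel, did not pass (log2 fold change -1.18, SE 0.62, limma adjusted p = 0.213).

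Vsig4 (chrX:96247203-96293438, GRCm38), a receptor for complement C3 fragments that captures bacteria from blood, stood at 5569, 5601 and 6029.8 TPM in liver and 0.0734 and 0.170 TPM in brain (log2 fold change -12.32, SE 0.19, limma adjusted p = 2.76e-05). Clec4f, a galactose-binding lectin found on Kupffer cells, stood at 2252, 3039.7 and 2509 TPM in liver and 0 and 0.0805 TPM in brain (log2 fold change -11.28, SE 0.24, limma adjusted p = 4.20e-05). Timd4, a phosphatidylserine receptor of resident macrophages, was at 721, 663 and 587 TPM in liver and 0 and 0.0145 TPM in brain (log2 fold change -9.35, SE 0.28, limma adjusted p = 8.39e-05). Clec1b, a podoplanin receptor, was at 1291, 1285 and 823 TPM and 0.0670 and 0.0950 TPM (log2 fold change -10.00, SE 0.31, limma adjusted p = 8.47e-05). In these genes no brain sample reached 1 TPM.

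A few Kupffer genes were present in 1 brain sample, and the WT 4 values of Folr2, Fcna and the border-associated genes below came from its second repeat column, such as 71.1 against 0.0891 TPM for Folr2. Folr2, a folate receptor, was at 35.6 and 0.199 TPM in brain WT 4 and WT 5 and 2187, 2415 and 2270.3 TPM in liver (log2 fold change -8.43, SE 1.35, limma adjusted p = 0.0112). Fcna, a ficolin that binds bacterial sugars, was at 31.9 and 0.273 TPM in brain and 3757, 4208 and 3239 TPM in liver (log2 fold change -9.17, SE 1.28, limma adjusted p = 0.00786). Mrc1, the mannose receptor, had its higher value in the other brain sample, at 0.201 and 13.03 TPM, with 153, 146 and 162 TPM in liver (log2 fold change -5.23, SE 1.00, limma adjusted p = 0.018). Brain WT 4 also held the border-associated macrophage genes Pf4 at 105 TPM, Cbr2 at 24.8 TPM and F13a1 at 17.6 TPM, which stood at 0.441, 0.0550 and 1.98 TPM in WT 5. Over the 9 border-associated macrophage markers the sum was 149.1 and 16.93 TPM in the brain samples and 1880, 1637 and 1428 TPM in the liver samples. Of the 9 markers 5 were lower in brain and F13a1 was higher, a call that was lost in 8 of 12 alternatives, leaving out any 1 liver sample included. The part of such cells in the brain values was not tested.

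Among the transcription factors, Id3, which Kupffer cells need for their maintenance, stood at 1267, 1214 and 1326 TPM in liver and 0.190 and 0.0435 TPM in brain (log2 fold change -10.15, SE 0.24, limma adjusted p = 4.20e-05). Nr1h3, the gene of LXR-alpha, stood at 182, 153 and 193 TPM in liver and 0.0173 and 0 TPM in brain (log2 fold change -7.45, SE 0.35, limma adjusted p = 2.90e-04). Its partner Rxra was at 12.8, 15.6 and 12.2 TPM and 0.0783 and 0.0210 TPM (log2 fold change -3.79, SE 0.48, limma adjusted p = 0.00571). Spic, the factor of iron-recycling macrophages, was at 321, 234 and 217 TPM in liver and 5.48 and 5.67 TPM in brain (log2 fold change -5.28, SE 0.30, limma adjusted p = 5.28e-04), so it was low but present in both brain samples. Among the secreted proteins, Cd5l, an inhibitor of apoptosis made by tissue macrophages, was at 1563, 1956 and 1756 TPM in liver and 0 and 0.0701 TPM in brain. Wfdc17 was the fifth most abundant transcript in liver, at 23875, 22755 and 17017 TPM, and stood at 175 and 92.2 TPM in brain (log2 fold change -7.36, SE 0.30, limma adjusted p = 2.19e-04). Lyz2, lysozyme, was expressed in both organs, at 14666, 13119.6 and 13694 TPM in liver and 445 and 192 TPM in brain (log2 fold change -5.56, SE 0.34, limma adjusted p = 6.95e-04). Fpr1, the formyl peptide receptor, and AW112010, a gene with no listed protein name, were the remaining genes among the largest or most abundant lower calls. Fpr1 was at 998, 699 and 821 TPM in liver and 0 and 0.0683 TPM in brain, and AW112010 at 3482, 3928 and 4260.3 TPM and 32.1 and 104 TPM. Apoc1, an apolipoprotein, was at 4646, 6083 and 3761 TPM in liver and 0.0786 and 0.313 TPM in brain (log2 fold change -11.96, SE 0.28, limma adjusted p = 4.20e-05).

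**Figure D2:**
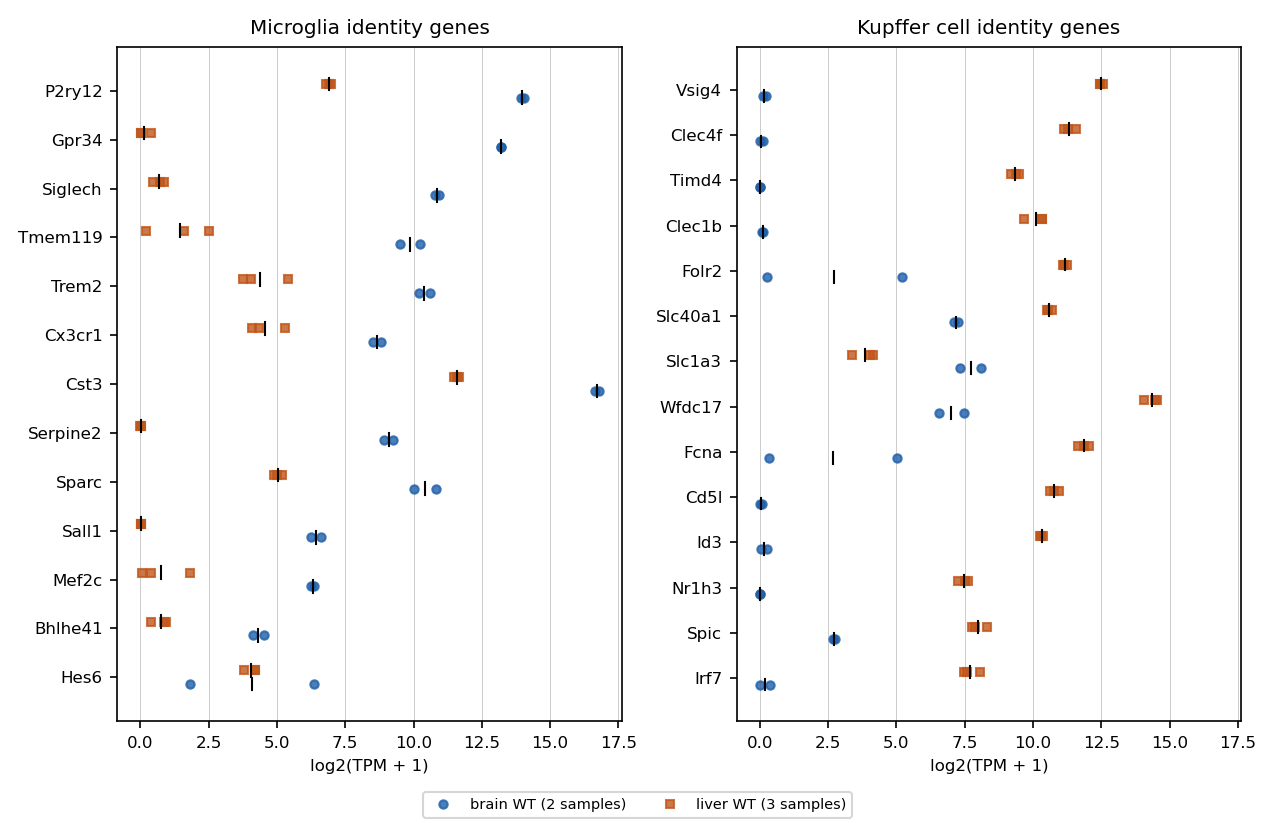
log2(TPM + 1) in each brain sample (blue circles) and each liver sample (orange squares) for 13 microglia genes (left) and 14 Kupffer cell genes (right), with black ticks at the mean of each organ. The organs separate in every gene but Hes6, Slc1a3 lies on the brain side, and Folr2 and Fcna are split between the brain samples.

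Promoters of genes from either programme are shown because macrophages of both organs depend on PU.1, a factor that binds ETS motifs. Its gene, Spi1, stood at 240.1 and 119 TPM in brain and 176, 156 and 141 TPM in liver (log2 fold change 0.11, SE 0.34, limma adjusted p = 0.849). The sequences are the 250 bases before the gene start, from RefSeq on GRCm38.p6, written 5' to 3' along the gene's strand. Capitals mark AGGAAGT, an ETS core, on either strand. P2ry12 lies at chr3:59262986-59263235 (minus strand), Fcrls at chr3:87263525-87263774 (minus), Fcna at chr2:25627975-25628224 (minus) and Spic at chr10:88683024-88683273 (minus).
P2ry12: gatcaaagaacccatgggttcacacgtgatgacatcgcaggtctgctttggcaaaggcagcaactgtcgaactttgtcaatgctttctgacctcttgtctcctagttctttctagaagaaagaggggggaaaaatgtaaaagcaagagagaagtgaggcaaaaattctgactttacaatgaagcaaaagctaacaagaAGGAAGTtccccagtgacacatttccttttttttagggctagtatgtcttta
Fcrls: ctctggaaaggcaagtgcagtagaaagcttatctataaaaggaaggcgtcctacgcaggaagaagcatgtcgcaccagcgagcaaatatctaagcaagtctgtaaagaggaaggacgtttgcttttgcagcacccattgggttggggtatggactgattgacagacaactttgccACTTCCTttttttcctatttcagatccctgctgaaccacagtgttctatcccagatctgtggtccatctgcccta
Fcna: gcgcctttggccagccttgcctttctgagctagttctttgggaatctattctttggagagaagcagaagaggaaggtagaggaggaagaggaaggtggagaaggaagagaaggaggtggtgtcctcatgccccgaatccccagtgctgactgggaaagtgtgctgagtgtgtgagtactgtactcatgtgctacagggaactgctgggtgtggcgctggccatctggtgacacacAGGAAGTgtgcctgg
Spic: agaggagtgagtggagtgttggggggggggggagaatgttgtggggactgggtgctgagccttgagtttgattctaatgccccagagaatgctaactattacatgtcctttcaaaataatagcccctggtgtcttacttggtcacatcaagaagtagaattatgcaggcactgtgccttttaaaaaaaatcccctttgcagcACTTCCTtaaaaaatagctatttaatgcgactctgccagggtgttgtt
The match begins 52 bases before the start in P2ry12, 75 in Fcrls, 15 in Fcna and 48 in Spic. It was present in 5 of 27 microglia identity genes with a promoter in the table (18.5%) and in 5 of 26 Kupffer cell identity genes with a promoter in the table (19.2%), beside 841 of 8948 tested genes with a promoter in the table (9.4%) and 8.8% of the 27025 genes with a promoter in the table. The motif was chosen after shares of several motifs had been seen, a match is a description of these letters, and its absence from this window says nothing about binding elsewhere.

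Cells of other types could reach the sort, and their markers moved with the organ. Of 15 hepatocyte genes, 13 were tested and 11 were lower in brain, beside 11.5% of all tested genes. The hepatocyte sum was 2078, 2541 and 2234 TPM in the liver samples and 233.4 and 466.2 TPM in the brain samples, where nearly all of it was Trf, transferrin, at 231 and 464 TPM; Alb, Apoa1 and Apoa2 were listed at 0 in both brain samples. In liver, Alb, albumin, was at 227, 264 and 406 TPM and Apoa2, an apolipoprotein, at 594, 827 and 678 TPM. Fabp1, the liver fatty acid-binding protein and not on that list, was among the 10 largest lower calls at 571, 721 and 748 TPM in liver and listed at 0 in brain. Sinusoidal endothelial genes numbered 10, of which 5 were lower in brain and Fcgr2b was higher, and Clec4g was at 98.9, 109 and 361 TPM in liver. The counts were 0 higher and 3 lower without liver WT 3 and 0 higher and 4 lower without liver WT 4. Of 10 stellate cell genes, 2 were tested and both were lower in brain. These markers are read beside the lipid, haem and complement genes below, and their part in those results was not tested.

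Markers of neural cells were counted next. Of 9 oligodendrocyte genes, 4 were tested and 3 were higher in brain, beside 14.9% of all tested genes: Mbp, myelin basic protein, at 257 and 161 TPM in brain and 0.285, 0.782 and 0.152 TPM in liver, Mobp at 100.1 and 48.1 TPM and 0.250, 0.237 and 0.179 TPM, and Cnp. Leaving out brain WT 4 or WT 5 left 1 of these calls, and leaving out any 1 liver sample left 2. Cnp lost its call in 12 of 17 alternatives, down to 0.57 (limma adjusted p = 0.83) with the first repeat column, and the columns of Mobp were at 1.84 and 198.3 TPM in WT 4 and 93.02 and 3.09 TPM in WT 5. Mog, Cldn11 and Opalin were listed at 0 in both brain samples. The oligodendrocyte sum was 439.6 and 264.1 TPM in brain and 11.37, 12.02 and 12 TPM in liver. Of 10 neuron genes Snap25 passed in the direction of brain (40.8 and 12.004 TPM) and Rbfox3 in that of liver, while Tubb3, Stmn2, Syt1 and Slc17a7 were under 0.1 TPM in all 5 samples. Among 10 astrocyte genes Slc1a3 and Aldoc passed in the direction of brain, Slc1a2 and Aldh1l1 in that of liver, and Gfap and Aqp4 did not exceed 1.21 TPM in brain. None of the 6 oligodendrocyte progenitor genes was tested, and of 10 endothelial and pericyte genes 5 were tested and Vtn was lower in brain. Leaving out 1 sample moved the neuron and astrocyte counts by at most 1. The endothelial and pericyte counts were 0 higher and 4 lower without liver WT 5.

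Blood cells were counted the same way. Monocyte, neutrophil, dendritic, T and NK, B, erythroid and platelet lists had 5, 4, 2, 4, 4, 4 and 2 tested genes. Of the monocyte genes Plac8 and Ms4a4c were lower in brain and F13a1 was higher, while Ccr2 did not pass, at 2.12 and 2.91 TPM in brain and 0.231, 0.772 and 0.226 TPM in liver. Of the neutrophil genes Csf3r and S100a9 were higher in brain. No T or NK cell gene passed, Clec9a was the dendritic cell gene lower in brain, and 3 erythroid genes, all globins, were lower in brain, 1 of them without liver WT 3 or WT 4. Leaving out 1 sample moved every other count here by at most 1. Ighm, the constant region of IgM heavy chains, was higher in brain at 327 and 513 TPM against 6.82, 16.4 and 5.15 TPM, while Igkc, the kappa light chain, was lower at 0 and 0.123 TPM against 161, 204 and 40.5 TPM, and the B cell gene Ms4a1 was listed at 0 in both brain samples. Gp9, a platelet glycoprotein, was at 53.3 and 51.97 TPM in brain and 0.0239, 0.0545 and 0 TPM in liver, whereas Gp1ba, Ppbp and Tubb1 were under 0.1 TPM in all 5 samples. The source of the Ighm and Gp9 reads was not tested.

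**Figure D3:**
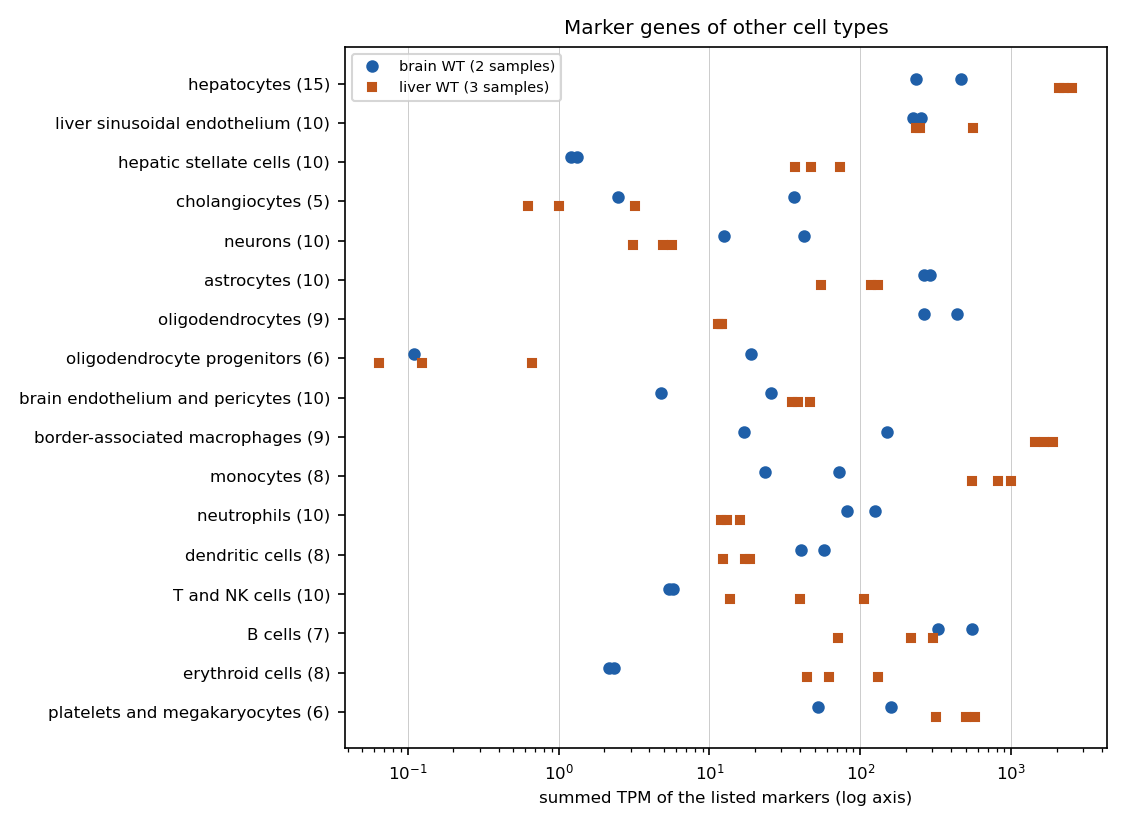
Summed TPM (log axis) of the marker genes of each other cell type, with 1 point per brain sample (blue circles) and liver sample (orange squares) and the number of markers in brackets. Hepatocyte, stellate, brain endothelial, border-associated macrophage, monocyte, T and NK cell, erythroid and platelet sums are higher in every liver sample. Neuron, astrocyte, oligodendrocyte, neutrophil, dendritic and B cell sums are higher in both brain samples, and the other sums overlap. Single genes made up most of several brain sums: Snap25 for neurons, Slc1a3 for astrocytes, Mbp for oligodendrocytes, Csf3r for neutrophils and Ighm for B cells.

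Macrophage genes were abundant in both organs. Of 12 pan-macrophage genes, all were tested, 5 were higher in brain, 3 were lower and 4 did not pass, with a median of 0.40 that became -0.03 under median-ratio scaling. Leaving out any 1 liver sample left 1 of the 3 lower calls. Csf1r, the receptor of the macrophage growth factor CSF1 and the driver of the recombinase, was at 858 and 958 TPM in brain and 294, 358 and 341 TPM in liver (log2 fold change 1.46, SE 0.17, limma adjusted p = 0.00456). Adgre1, the gene of the sorting antigen F4/80, was at 139 and 231 TPM in brain and 361, 386 and 364 TPM in liver (log2 fold change -1.04, SE 0.26, limma adjusted p = 0.0355), a call that held in 9 of 17 alternatives. Itgam, the gene of CD11b, differed most in the list, at 134 and 164 TPM in brain and 2.89, 8.70 and 4.98 TPM in liver (log2 fold change 4.62, SE 0.50, limma adjusted p = 0.00389). Tyrobp, the signalling adaptor of TREM2, was at 10918 and 10802 TPM in brain and 10063, 10995 and 10033 TPM in liver, and Cd68, a lysosomal glycoprotein, at 1686 and 1854 TPM and 1702, 1552 and 1757 TPM. Neither passed, and their log2 fold changes of 0.07 and 0.08 had SEs of 0.08 and 0.12. Scaling moved these near-level genes, since Tyrobp passed at -0.37 under median-ratio scaling and at 0.52 under quantile normalization. Braf, the gene of the conditional allele, was at 14.5 and 33.8 TPM in brain and 3.12, 2.32 and 2.18 TPM in liver (log2 fold change 2.72, SE 0.56, limma adjusted p = 0.0223), values that do not separate alleles. Its repeat columns were at 28.21 and 0.833 TPM in brain WT 4 and 2.93 and 64.59 TPM in WT 5, and the call was lost in 8 of 17 alternatives, down to 1.47 with the last column (limma adjusted p = 0.544).

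Factors that macrophages share were called in both directions. Of 40 genes in 3 roles, 29 were tested, 4 were higher in brain, near the background share of 14.9%, and 10 were lower, beside 11.5%, with a median of 0.12 that turned to -0.27 under median-ratio scaling and -0.07 under quantile normalization. The counts were 0 higher and 8 lower without liver WT 3 and 1 higher and 6 lower without liver WT 4. Maf, Irf5, Runx1 and Zeb2 were higher, and Irf5 and Runx1 no longer passed under median-ratio scaling or quantile normalization. Maf was at 165 and 188 TPM in brain and 72.1, 70.8 and 70.5 TPM in liver (log2 fold change 1.30, SE 0.22, limma adjusted p = 0.013), and Zeb2 at 165 and 133 TPM and 50.3, 43.9 and 57.9 TPM (log2 fold change 1.53, SE 0.27, limma adjusted p = 0.0141). Cebpb, a C/EBP factor of inflammatory genes, and Batf3 were lower, at 24.8 and 21.8 TPM in brain against 109.9, 107 and 152 TPM in liver and 15.8 and 39.3 TPM against 144, 178 and 163 TPM. Irf8 did not pass, at 44.7 and 107 TPM in brain and 24.04, 33.998 and 14.1 TPM in liver. Pparg, a lipid-activated nuclear receptor, was listed at 0 in both brain samples and stood at 12.6, 14.1 and 21.8 TPM in liver. Of 9 tested genes of the AP-1, EGR, KLF and NR4A families 4 were lower in brain: Fos, at 0.0130 and 0.00792 TPM in brain and 40.7, 12.4 and 19.01 TPM in liver, Atf3, Klf2 and Klf4. These families respond within minutes to tissue dissociation. Of the 15 tested genes on the list of that response, 4 were lower in brain (Fos, Atf3, Ier3 and Dusp1) and none was higher, with sums of 193.6 and 263.3 TPM in the brain samples and 640.4, 378.7 and 410.5 TPM in the liver samples. Their part in the organ difference was not tested.

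TGF-beta signals are carried by type I and II receptors that phosphorylate SMADs, and BMP signals by related receptors that raise the ID genes. Of 48 pathway genes, 33 were tested, 7 were higher in brain and 5 were lower, beside 14.9% and 11.5% of all tested genes. The counts were 11 higher and 7 lower without brain WT 5, 3 higher and 4 lower without liver WT 3, 3 higher and 4 lower without liver WT 4 and 4 higher and 4 lower without liver WT 5. Tgfbr1, the type I TGF-beta receptor, was at 616 and 698 TPM in brain and 21.3, 21.8 and 25.5 TPM in liver (log2 fold change 4.79, SE 0.24, limma adjusted p = 3.45e-04), and Tgfbr2, the type II receptor, at 104 and 85.3 TPM and 28.1, 23.2 and 24.6 TPM (log2 fold change 1.86, SE 0.29, limma adjusted p = 0.0108). None of the BMP receptors passed, and the ligand gene Tgfb1 was at 7.15 and 13.9 TPM in brain and 7.42, 11.5 and 7.68 TPM in liver. The latent TGF-beta tether Nrros did not pass either, at 88.8 and 105 TPM and 85.997, 82.7 and 111 TPM, while the integrin chains Itgav and Itgb5 were higher in brain, with log2 fold changes of 1.73 and 1.92; Itgb5 did not pass under quantile normalization. The inhibitors Ski and Skil and the mediator Smad5 were higher, Smad5 with uneven brain values of 13.7 and 48.6 TPM. Of the 6 tested targets 5 were lower in brain, and Skil, which is listed under both roles, was higher. Id1 was listed at 0 in both brain samples and at 239, 149 and 228 TPM in liver, Id3 is given above, Id2 was at 169.95 and 117 TPM in brain and 608, 366 and 426 TPM in liver, and Tgfbi and Hes1 also passed.

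Of 21 Notch pathway genes, 13 were tested, 4 were higher in brain and 1 was lower, beside 14.9% and 11.5% of all tested genes. The counts were 6 higher and 2 lower without brain WT 4, 1 higher and 1 lower without liver WT 3, 1 higher and 1 lower without liver WT 4 and 1 higher and 1 lower without liver WT 5. Hes1, a direct Notch target, was at 0.234 and 1.59 TPM in brain and 66.6, 50.8 and 102 TPM in liver (log2 fold change -5.31, SE 0.54, limma adjusted p = 0.0033). Numb, an adaptor that antagonizes Notch, was at 276 and 125 TPM in brain and 2.08, 4.62 and 12.6 TPM in liver (log2 fold change 4.92, SE 0.74, limma adjusted p = 0.00955). Adam10, the protease that cleaves Notch, Maml2, a coactivator, and Dtx4, an E3 ligase, were also higher, and none of these 3 passed under median-ratio scaling. Notch receptors themselves were low: Notch1 was at 0.503 and 15.9 TPM in brain and 2.12, 1.66 and 3.93 TPM in liver and did not pass, and Notch2 and Notch3 were below the level for testing. Rbpj, the DNA-binding partner of Notch, did not pass (log2 fold change 0.94, SE 0.78, limma adjusted p = 0.416).

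LXR-alpha turns on genes that export cholesterol. Of 30 genes of lipid handling, 28 were tested, 3 were higher in brain and 14 were lower, with a median of -1.56, beside 14.9% and 11.5% of all tested genes. Leaving out 1 liver sample gave 2 higher and 10 to 13 lower. Apoe, the main lipid carrier of macrophages, was at 609 and 1071 TPM in brain and 15015, 18194 and 19543 TPM in liver (log2 fold change -4.43, SE 0.26, limma adjusted p = 5.64e-04). Apoc1, Apoc2 and Apoc4, which neighbour Apoe, were also lower; Apoc2 and Apoc4 were listed at 0 in both brain samples and stood at 39.5, 27.5 and 31.4 TPM and 61.5, 62.6 and 28.3 TPM in liver. Pltp, the phospholipid transfer protein, was at 0.0112 and 0.0448 TPM in brain and 212, 269.5 and 314 TPM in liver (log2 fold change -8.00, SE 0.35, limma adjusted p = 2.42e-04). The transporters Abca1 and Abcg1 did not pass, at 32.9 and 46.3 TPM against 25.3, 24.2 and 25.5 TPM and 10.6 and 13.1 TPM against 25.7, 19.5 and 23.1 TPM, although both are LXR targets. Nr1h2, which encodes LXR-beta, was at 11.2 and 22.5 TPM in brain and 15.4, 13.5 and 5.80 TPM in liver and did not pass (log2 fold change 0.53, SE 0.60, limma adjusted p = 0.555). Fabp7 was at 73.9 and 0.437 TPM in the brain samples and 952, 1013 and 668 TPM in liver (log2 fold change -6.38, SE 1.57, limma adjusted p = 0.0345). Lpcat3, a phospholipid-remodelling enzyme, Npc1, a lysosomal cholesterol transporter, and Mylip, a ligase for the LDL receptor, were higher in brain, Lpcat3 at 129 and 212 TPM against 9.22, 17.4 and 7.15 TPM (log2 fold change 3.85, SE 0.48, limma adjusted p = 0.0056). Apolipoproteins are also hepatocyte products, and the hepatocyte sum given above moved with the organ.

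Kupffer cells take apart haemoglobin from aged red cells, and genes of that route were lower in brain or did not pass. Of 27 iron and haem genes, 24 were tested, 14 were lower in brain and none was higher, with a median of -2.09, beside 11.5% lower among all tested genes. Leaving out any 1 liver sample gave 0 higher and 10 lower, with medians of -2.15 to -2.31. Of the haem uptake and breakdown genes 7 of 8 were lower. Cd163, the haptoglobin-haemoglobin receptor, was at 0.0860 and 0.363 TPM in brain and 52.7, 61.5 and 51.2 TPM in liver (log2 fold change -5.52, SE 0.42, limma adjusted p = 0.00146), and Hmox1, which opens the haem ring, at 42.1 and 46.8 TPM and 279.6, 241 and 530.4 TPM (log2 fold change -2.86, SE 0.38, limma adjusted p = 0.00678). Blvrb, a biliverdin reductase, was at 0.0969 and 29.6 TPM in the brain samples and 545, 589.6 and 666 TPM in liver, and the haem exporter of the phagosome, Slc48a1, at 5.98 and 0.0370 TPM and 69.6, 61.9 and 81.01 TPM. Hpx and Hp, which encode the plasma proteins haemopexin and haptoglobin, both made by hepatocytes, were at 0 and 0 and 0.0369 and 0.0685 TPM in brain and at 32.4, 19.5 and 21.1 TPM and 23.8, 22.7 and 61.1 TPM in liver. Slc40a1, the iron exporter ferroportin, was at 151 and 137 TPM in brain and 1456, 1505 and 1641 TPM in liver (log2 fold change -3.41, SE 0.15, limma adjusted p = 2.46e-04), and the ferritin chain Fth1 at 2768 and 2525 TPM and 8398, 8255 and 10377 TPM (log2 fold change -1.76, SE 0.13, limma adjusted p = 0.00141). Lrp1 did not pass (log2 fold change -0.04, SE 0.39, limma adjusted p = 0.954), and the transferrin receptor Tfrc overlapped between organs, at 0.105 and 17.2 TPM in brain and 39.98, 11.8 and 4.66 TPM in liver.

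Uptake receptors differed between the organs. Of 47 phagocytic and scavenger receptor genes, 38 were tested, 8 were higher in brain and 20 were lower, beside 14.9% and 11.5% of all tested genes. The counts were 5 higher and 19 lower without liver WT 3 and 5 higher and 18 lower without liver WT 4. Of 11 tested lectins 10 were lower in brain and the summed TPM of the lectins was 1.91 and 15 in brain and 7168, 7600 and 6868 in liver. Cd209f was at 0.0606 and 0 TPM in brain and 939, 814 and 732 TPM in liver, a value that may be shared with its paralogs. Clec4n, the gene of dectin-2, was at 0.256 and 0.0335 TPM in brain and 743, 687 and 799 TPM in liver, and Clec7a, the gene of dectin-1, at 0.0426 and 0.0495 TPM and 202, 265 and 155 TPM. Lgals3, galectin-3, was at 0.588 and 0.133 TPM in brain and 782, 766 and 1048 TPM in liver. The scavenger receptor Msr1 was at 0 and 0.0160 TPM in brain and 589, 548 and 698 TPM in liver (log2 fold change -9.24, SE 0.28, limma adjusted p = 8.39e-05), and Marco, Cd36, Cd163, Stab2 and Cd5l also passed; Stab1, the endocytic receptor stabilin-1, was the exception at 152 and 104 TPM in brain and 30.8, 38.4 and 44.1 TPM in liver (log2 fold change 1.72, SE 0.32, limma adjusted p = 0.0163). Receptors for dying cells split. The TAM receptor Axl was at 0.150 and 0.0168 TPM in brain and 151, 158 and 144 TPM in liver (log2 fold change -7.14, SE 0.35, limma adjusted p = 3.26e-04), while its relative Mertk was at 201 and 215 TPM and 75.9, 76.98 and 81.5 TPM (log2 fold change 1.40, SE 0.21, limma adjusted p = 0.0096). Pros1, protein S, a bridging ligand of MERTK, was higher in brain at 299 and 257 TPM against 34.03, 14.5 and 29.8 TPM (log2 fold change 3.45, SE 0.42, limma adjusted p = 0.00537), and so was Elmo1, which drives engulfment, at 239.6 and 198 TPM against 25.2, 10.3 and 9.20 TPM. In the TREM family Trem2 was higher in brain, while Treml4 was listed at 0 in brain and at 180.5, 186 and 238 TPM in liver.

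Of 9 Fc receptor genes, 7 were tested, 2 were higher in brain and 2 were lower, beside 14.9% and 11.5% of all tested genes, and their median of 0.24 became -0.20 under median-ratio scaling. The counts were 1 higher and 2 lower without brain WT 4, 1 higher and 2 lower without brain WT 5, 1 higher and 2 lower without liver WT 3 and 1 higher and 1 lower without liver WT 4. Fcrls is given above, and Fcgr2b, the inhibitory receptor for IgG, was at 211 and 253 TPM in brain and 33.6, 43.02 and 86.96 TPM in liver (log2 fold change 2.18, SE 0.44, limma adjusted p = 0.021). Fcgr4, an activating receptor, was at 56.005 and 8.71 TPM in brain and 395, 489.9 and 441 TPM in liver (log2 fold change -4.23, SE 0.72, limma adjusted p = 0.0133), and Fcgrt, the neonatal Fc receptor, at 81.998 and 46.1 TPM and 260.1, 238 and 282 TPM (log2 fold change -2.06, SE 0.30, limma adjusted p = 0.009). Fcgr1 and Fcgr3 did not pass, and the shared signalling chain Fcer1g was at 7147 and 7258 TPM in brain and 6104, 6129 and 6013 TPM in liver (log2 fold change 0.24, SE 0.08, limma adjusted p = 0.0726), a difference that passed at 0.86 under quantile normalization and was -0.20 under median-ratio scaling.

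Genes of nucleotide sensing were called in both directions. Of 27 genes of the purinergic system, 26 were matched and 14 were tested, of which 7 were higher in brain and 4 were lower, with a median of 1.54, beside 14.9% and 11.5% of all tested genes. Leaving out 1 sample gave 4 or 5 higher and 3 or 4 lower, with medians of 0.67 to 1.56. Besides P2ry12 and Gpr34, P2ry13, another ADP receptor, was at 1248 and 1655 TPM in brain and 151, 134 and 114 TPM in liver (log2 fold change 3.43, SE 0.22, limma adjusted p = 7.97e-04), and P2ry6, a UDP receptor, at 116 and 135 TPM and 56.1, 60.4 and 66.4 TPM (log2 fold change 1.03, SE 0.24, limma adjusted p = 0.0317). P2ry6 did not pass under either scaling. P2ry14, a UDP-glucose receptor, was listed at 0 in brain and at 13.9, 21.7 and 13.1 TPM in liver. Of the ATP-gated channels, P2rx7 was higher in brain, at 36.2 and 54.8 TPM against 4.34, 9.35 and 4.69 TPM, and P2rx4 was lower, at 52.9 and 46.5 TPM against 179, 162 and 198 TPM. The adenosine receptor Adora3 was at 57.6 and 76.9 TPM in brain and 0.0327, 0.108 and 0.157 TPM in liver, and Ada, which removes adenosine, was listed at 0 in brain and at 25.3, 32.7 and 48.5 TPM in liver. Entpd1, the ectoenzyme CD39, did not pass (log2 fold change 0.84, SE 0.32, limma adjusted p = 0.107).

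Most called complement genes were lower in brain. Of 27 genes, 24 were tested, 2 were higher in brain and 13 were lower, with a median of -1.85, beside 14.9% and 11.5% of all tested genes. Of these calls Vsig4 and the receptor Itgam are given elsewhere. Leaving out 1 liver sample gave 2 or 3 higher and 10 or 11 lower. The C1q chains were abundant in both organs: C1qb was at 6933 and 9451 TPM in brain and 11959.9, 11885 and 13209 TPM in liver (log2 fold change -0.61, SE 0.15, limma adjusted p = 0.0335), and C1qc at 3680.5 and 5247 TPM and 7342, 7383 and 7922 TPM (log2 fold change -0.78, SE 0.16, limma adjusted p = 0.0227), while C1qa did not pass (log2 fold change -0.56, SE 0.16, limma adjusted p = 0.0573). Under quantile normalization C1qb and C1qc did not pass, at -0.25 and -0.02, and under median-ratio scaling C1qa passed, with a limma adjusted p = 0.00925. Of the 6 tested genes of the alternative and terminal pathway 5 were lower in brain. Cfp, properdin, which stabilizes the C3 convertase, was at 0.0178 and 0.0940 TPM in brain and 686, 705 and 676 TPM in liver (log2 fold change -9.35, SE 0.26, limma adjusted p = 8.39e-05), and C6 at 0.00456 and 0.0526 TPM and 266, 265 and 222 TPM. C3 was low in both, at 0.134 and 0.00277 TPM in brain and 4.08, 6.29 and 9.55 TPM in liver. The inhibitor Cd55, which dissolves the convertase, was lower in brain, at 0.264 and 0.0808 TPM against 55.2, 21.1 and 49.8 TPM. The anaphylatoxin receptors C3ar1 and C5ar1 did not pass.

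Of 27 genes of Toll-like receptors and their partners, 25 were tested, 4 were higher in brain and 4 were lower, both near the 14.9% and 11.5% of all tested genes. The counts were 2 higher and 4 lower without liver WT 3, 1 higher and 4 lower without liver WT 4 and 1 higher and 4 lower without liver WT 5. Tlr7, a sensor of single-stranded RNA, was at 89.1 and 128 TPM in brain and 46.04, 26.02 and 31.3 TPM in liver (log2 fold change 1.64, SE 0.37, limma adjusted p = 0.0269), and Tlr8 at 0.00411 and 0.1999 TPM and 17.3, 9.13 and 13.4 TPM (log2 fold change -3.66, SE 0.53, limma adjusted p = 0.0085). Tlr4, which senses lipopolysaccharide, did not pass, at 43.5 and 66.4 TPM in brain and 27.99, 23.2 and 23.6 TPM in liver, and neither did its partners Cd14 and Ly96. Lbp, which hands lipopolysaccharide to CD14, was at 0.741 and 0.136 TPM in brain and 11.9, 11.7 and 9.89 TPM in liver. Ly86, the partner of CD180, was higher in brain at 3461 and 2885 TPM against 941, 951 and 1079.5 TPM (log2 fold change 1.68, SE 0.14, limma adjusted p = 0.00193). Under median-ratio scaling 1 of the 4 higher genes passed, and the 4 lower genes passed.

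Interferon-stimulated genes were lower in brain in all but 1 of the calls. Of 36 matched genes of the type I interferon response, all were tested, 23 were lower in brain and Tmem173 alone was higher, with a median of -3.91, beside 11.5% lower among all tested genes. Leaving out 1 liver sample gave 1 higher and 17 to 19 lower. Ifitm3, a membrane protein that blocks viral fusion, was at 22.8 and 37.1 TPM in brain and 5639, 6115 and 4445 TPM in liver (log2 fold change -7.47, SE 0.26, limma adjusted p = 1.19e-04), although reads of the paralog Ifitm2 could be shared. Ifi27l2a was at 60.2 and 78.5 TPM in brain and 4846, 5879 and 4197 TPM in liver (log2 fold change -6.14, SE 0.21, limma adjusted p = 1.07e-04). Among effectors of lower abundance, Ifit3, which binds viral RNA, was at 0 and 0.00956 TPM in brain and 145, 242 and 156 TPM in liver (log2 fold change -7.46, SE 0.40, limma adjusted p = 4.28e-04), Oasl2 at 0.0708 and 0.172 TPM and 85.3, 108 and 60.9 TPM, and Ifit1 at 0.450 and 0.359 TPM and 21.6, 20.96 and 21.9 TPM. Isg15, a ubiquitin-like protein that interferon raises in most cells, did not follow: it was at 19.3 and 5.32 TPM in brain and 14.01, 20.5 and 3.95 TPM in liver and did not pass (log2 fold change -0.05, SE 0.86, limma adjusted p = 0.974). Trim30a and Mx1 did not pass either.

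Upstream of these effectors, the receptor chain Ifnar2 was at 181 and 265 TPM in brain and 453, 445 and 407 TPM in liver (log2 fold change -0.99, SE 0.22, limma adjusted p = 0.0272), and Ifnar1 did not pass. Stat2 and Irf9, which act together downstream of the receptor, did not pass. Irf7, the factor that amplifies interferon production and also a member of the Kupffer cell list, was at 0.00970 and 0.311 TPM in brain and 189, 267 and 178 TPM in liver (log2 fold change -7.50, SE 0.38, limma adjusted p = 3.45e-04). Among the sensors Zbp1 was at 0.332 and 1.15 TPM in brain and 126, 126 and 147 TPM in liver and Ifi204 at 0.00721 and 0.00696 TPM and 139.5, 185 and 148 TPM. Tmem173, the gene of the cGAMP receptor STING, was at 252 and 527 TPM in brain and 26.4, 22.99 and 32.8 TPM in liver (log2 fold change 3.70, SE 0.39, limma adjusted p = 0.00371), and the RNA sensor Ddx58 did not pass, at 34.3 and 41.5 TPM and 38.6, 40.2 and 30.4 TPM.

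The promoters of Ifit1, Ifit3 and Isg15 are shown because the first pair was far lower in brain and the third did not pass, although all hold matches to the element that STAT2 and IRF9 act through. Capitals mark GAAA, any pair of bases and GAAA again, the paired half-sites of an interferon-stimulated response element, on either strand, with overlapping matches run together. Ifit1 lies at chr19:34640639-34640888 (plus strand), Ifit3 at chr19:34583279-34583528 (plus) and Isg15 at chr4:156200819-156201068 (minus), from RefSeq on GRCm38.p6.
Ifit1: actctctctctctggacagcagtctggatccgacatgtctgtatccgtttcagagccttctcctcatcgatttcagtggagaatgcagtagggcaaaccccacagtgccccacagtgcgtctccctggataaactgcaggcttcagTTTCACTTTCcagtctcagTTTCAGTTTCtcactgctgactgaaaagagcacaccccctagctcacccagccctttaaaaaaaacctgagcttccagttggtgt
Ifit3: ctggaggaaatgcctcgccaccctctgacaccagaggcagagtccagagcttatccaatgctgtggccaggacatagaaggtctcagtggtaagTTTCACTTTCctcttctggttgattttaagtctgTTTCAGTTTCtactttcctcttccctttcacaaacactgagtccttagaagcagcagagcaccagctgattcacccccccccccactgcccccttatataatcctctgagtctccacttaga
Isg15: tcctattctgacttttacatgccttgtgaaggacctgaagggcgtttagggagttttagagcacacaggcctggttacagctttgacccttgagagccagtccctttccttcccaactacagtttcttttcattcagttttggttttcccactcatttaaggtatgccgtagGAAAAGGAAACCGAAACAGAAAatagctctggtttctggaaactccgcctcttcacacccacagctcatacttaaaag
Ifit1 and Ifit3 each hold 2 matches and Isg15 holds 3. The element was present in 9 of 25 type I interferon response genes with a promoter in the table (36%), beside 321 of 8948 tested genes with a promoter in the table (3.59%). Among all genes lower in brain, 5.91% of 1066 with a promoter in the table held it, and among all genes higher in brain, 2.55% of 1294 with a promoter in the table held it.

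The genes of MHC class II, which present peptides to CD4+ T cells, were lower in brain with a pair of exceptions. Of 11 genes, 9 were tested, 5 were lower in brain and 2 were higher, beside 11.5% and 14.9% of all tested genes. The counts were 1 higher and 3 lower without liver WT 4. Cd74, the invariant chain, was at 92.9 and 557 TPM in the brain samples and 6733, 9443 and 11040.0 TPM in liver (log2 fold change -5.28, SE 0.73, limma adjusted p = 0.0076). H2-Aa was at 0.592 and 168 TPM in the brain samples and 3667, 4299 and 5469 TPM in liver (log2 fold change -8.07, SE 1.83, limma adjusted p = 0.028), and H2-Ab1 at 36.2 and 135 TPM and 1697, 2365 and 3199 TPM (log2 fold change -5.04, SE 0.58, limma adjusted p = 0.00456). The brain WT 5 value of H2-Aa came from 1 repeat column, at 335.6 against 0.469 TPM, and so did most of its Cd74, at 1044.6 against 69.36 TPM. The dendritic cell gene Cd209a was also present in that column alone, at 112.6 against 0.116 TPM. H2-Aa lost its call in 5 of 17 alternatives, leaving out any 1 liver sample included, while Cd74 and H2-Ab1 passed in all 17. The dendritic cell genes Flt3, Xcr1 and Clec9a were under 1 TPM in both brain samples. H2-Oa and H2-Ob, the chains of H2-O, which restrains peptide loading, were higher in brain, at 28.7 and 77.96 TPM against 2.52, 0.0436 and 0.0958 TPM and 87.1 and 79.5 TPM against 1.49, 3.17 and 0.0228 TPM (log2 fold change 5.26, SE 0.71, limma adjusted p = 0.00697 for H2-Ob). The loading chains H2-DMb1 and H2-DMb2 did not pass, and Ciita, the master regulator, was at 0.0627 and 0.0431 TPM in brain and 0.896, 0.975 and 1.16 TPM in liver, below the level for testing.

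Promoters of MHC class II genes share an X-Y module whose Y box is a reversed CCAAT box, bound by NF-Y, and CIITA is recruited to that module. H2-Aa (chr17:34287824-34288073, minus strand) and H2-Eb1 (chr17:34305617-34305866, plus), with H2-Eb1 at 5.92 and 19.7 TPM in brain and 313, 459 and 586 TPM in liver, are shown for that box. Capitals mark CCAAT on either strand (RefSeq, GRCm38.p6).
H2-Aa: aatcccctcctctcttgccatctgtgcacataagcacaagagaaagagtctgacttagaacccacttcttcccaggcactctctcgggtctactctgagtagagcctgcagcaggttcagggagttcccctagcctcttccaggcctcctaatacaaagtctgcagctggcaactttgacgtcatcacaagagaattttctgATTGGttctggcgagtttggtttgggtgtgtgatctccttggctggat
H2-Eb1: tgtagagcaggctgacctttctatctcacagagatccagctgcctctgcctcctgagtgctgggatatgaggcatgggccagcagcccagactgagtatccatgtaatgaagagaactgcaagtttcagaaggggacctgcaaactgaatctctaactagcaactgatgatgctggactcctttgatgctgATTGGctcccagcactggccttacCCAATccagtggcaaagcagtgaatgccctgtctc
CCAAT was present in 7 of 7 MHC class II genes with a promoter in the table (100%), the higher H2-Oa and H2-Ob included, beside 3635 of 8948 tested genes with a promoter in the table (40.6%).

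Of 15 MHC class I genes, all were tested, 6 were lower in brain and none was higher, beside 11.5% lower among all tested genes. The counts were 1 higher and 8 lower without brain WT 4, 0 higher and 10 lower without brain WT 5 and 0 higher and 3 lower without liver WT 4. H2-K1 was at 109.8 and 161 TPM in brain and 671, 745 and 797 TPM in liver (log2 fold change -2.46, SE 0.22, limma adjusted p = 0.00238) and H2-D1 at 63.6 and 235 TPM and 1070.0, 1273 and 1327 TPM (log2 fold change -3.30, SE 0.53, limma adjusted p = 0.0114); these genes are near-identical to others of the family and may share reads. Beta-2 microglobulin, B2m, which pairs with all class I chains, was at 9679 and 9377 TPM in brain and 9926, 9779 and 9604 TPM in liver (log2 fold change -0.04, SE 0.07, limma adjusted p = 0.753); it passed at -0.48 under median-ratio scaling and in the opposite direction, at 0.45 (limma adjusted p = 0.0393), under quantile normalization. Under median-ratio scaling 11 class I genes were lower in brain.

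**Figure D4:**
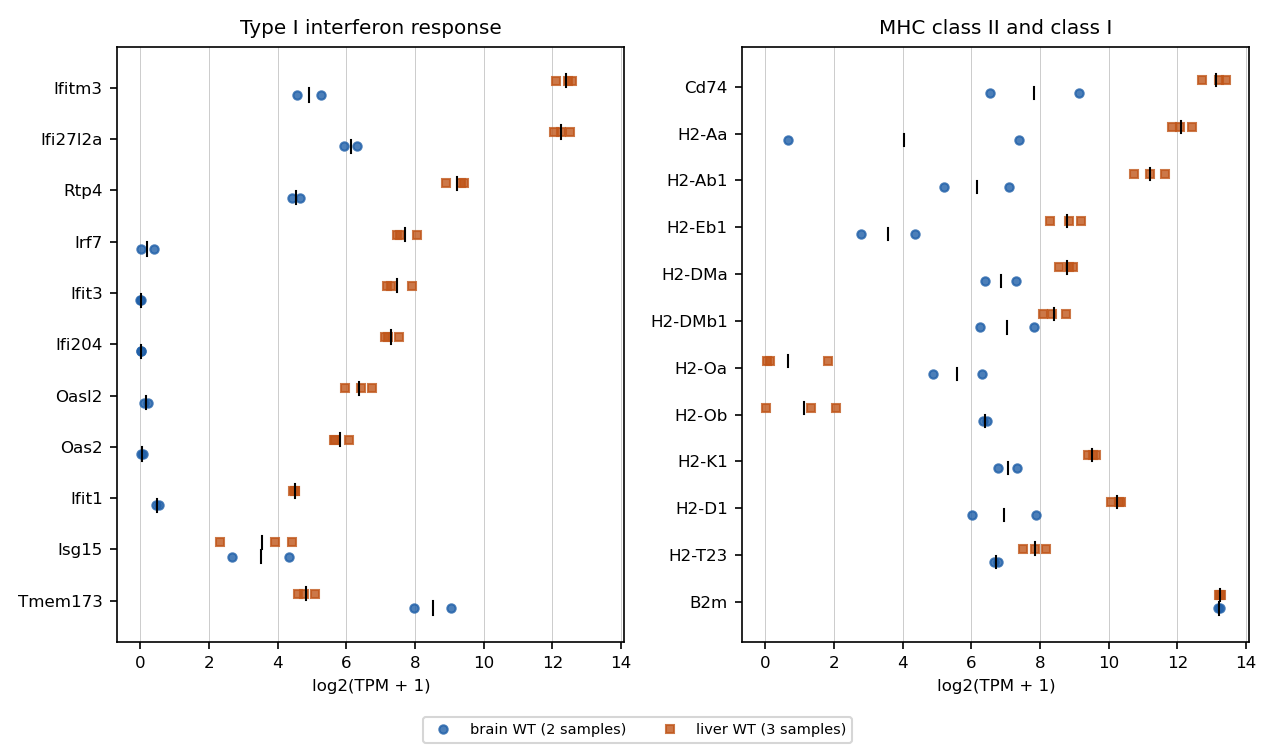
log2(TPM + 1) in each brain sample (blue circles) and liver sample (orange squares) for 11 genes of the interferon response (left) and 12 of MHC class II and I (right), with black ticks at the mean of each organ. Isg15 overlaps between organs, B2m lies at nearly the same height in all 5 samples, Tmem173, H2-Oa and H2-Ob lie on the brain side, and H2-Aa is split between the brain samples.

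Of 30 chemokine and chemokine receptor genes, 26 were tested, 5 were higher in brain and 12 were lower, with a median of -1.80, beside 14.9% and 11.5% of all tested genes. Of the 18 tested chemokines 11 were lower, and of the 8 tested receptors 3 were higher. The counts were 3 higher and 12 lower without liver WT 3. Cxcl13, a B cell attractant, was listed at 0 in brain and stood at 986, 577 and 393 TPM in liver (log2 fold change -9.25, SE 0.45, limma adjusted p = 3.26e-04). Ccl24, an eosinophil attractant, was at 2.03 and 9.69 TPM in brain and 625, 885 and 495 TPM in liver (log2 fold change -6.84, SE 0.58, limma adjusted p = 0.00195). The monocyte attractant Ccl2 was at 7.16 and 4.03 TPM in brain and 268, 123 and 110.3 TPM in liver, and Ccl7 at 0.0248 and 0.0613 TPM and 134, 102 and 102 TPM. Ccl12 was the reverse, at 189 and 391 TPM in brain and 19.9, 21.8 and 19.1 TPM in liver (log2 fold change 3.68, SE 0.38, limma adjusted p = 0.00346). Ccl3 did not pass, at 425 and 38.97 TPM in the brain samples and 65.6, 34.2 and 39.7 TPM in liver, and neither did Ccl4, at 579 and 140.5 TPM and 89.8, 83.2 and 60.001 TPM. Among the receptors, Ccr3 was lower in brain, at 4.36 and 0.366 TPM against 235, 233 and 203 TPM in liver (log2 fold change -6.37, SE 0.61, limma adjusted p = 0.00275).

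Of 35 genes of cytokines, growth factors and their receptors, 29 were tested, 3 were higher in brain and 6 were lower, beside 14.9% and 11.5% of all tested genes, and their median of 0.17 became -0.24 under median-ratio scaling and -0.41 under quantile normalization. The counts were 5 higher and 8 lower without brain WT 4 and 5 higher and 7 lower without brain WT 5. Il1b was listed at 0 in both brain samples and stood at 445, 216 and 431 TPM in liver (log2 fold change -8.44, SE 0.44, limma adjusted p = 3.70e-04), while Il1a was present in both organs, at 525 and 287 TPM in brain and 272, 204 and 211 TPM in liver (log2 fold change 0.77, SE 0.31, limma adjusted p = 0.124). Il18bp, the decoy that binds IL-18, was at 0.0348 and 5.62 TPM in the brain samples and 1235, 1149 and 1191 TPM in liver. Il18 itself was at 146 and 228 TPM in brain and 582, 443 and 472 TPM in liver (log2 fold change -1.43, SE 0.26, limma adjusted p = 0.0152). Igf1, a growth factor that microglia supply in development, was at 30.3 and 2.14 TPM in the brain samples and 751, 791 and 640.1 TPM in liver (log2 fold change -6.19, SE 0.92, limma adjusted p = 0.00955). Csf3r, the G-CSF receptor, was higher in brain at 115 and 71.3 TPM against 8.42, 9.80 and 7.69 TPM.

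Lysosomal genes were called in both directions. Of 29 genes, 26 were tested, 8 were higher in brain and 5 were lower, with a median of 0.46, beside 14.9% and 11.5% of all tested genes. The counts were 5 higher and 4 lower without liver WT 3 and 6 higher and 3 lower without liver WT 4. Under median-ratio scaling 5 were higher and 5 lower, with a median of 0.03. Ctsd, an aspartyl protease, was at 3097 and 4703 TPM in brain and 529.7, 568 and 579 TPM in liver (log2 fold change 2.77, SE 0.20, limma adjusted p = 0.00126), and Ctss, a cysteine protease, at 12252 and 14196 TPM and 6715, 7192 and 7030.4 TPM (log2 fold change 0.92, SE 0.10, limma adjusted p = 0.00363). Ctsb and Ctsc were lower, Ctsb at 423 and 736 TPM in brain and 2024, 2277 and 2173 TPM in liver (log2 fold change -1.95, SE 0.25, limma adjusted p = 0.00594) and Ctsc at 654 and 883 TPM and 2599, 2188 and 2499 TPM. Cd63, a tetraspanin of late endosomes, was at 482 and 715 TPM in brain and 16.6, 10.5 and 4.53 TPM in liver (log2 fold change 5.83, SE 0.55, limma adjusted p = 0.00259). Lamp1 was lower in brain and Lamp2 did not pass. Of 24 integrin and adhesion genes, 17 were tested, 6 were higher in brain and 4 were lower, beside 14.9% and 11.5% of all tested genes. Itga6, a laminin receptor chain, was at 131 and 172 TPM in brain and 1.78, 6.29 and 7.02 TPM in liver (log2 fold change 4.79, SE 0.58, limma adjusted p = 0.00526), Jam2, a junctional adhesion molecule, at 74.8 and 88.4 TPM and 2.23, 0.910 and 6.10 TPM, and Itgal, the LFA-1 chain, at 0.0212 and 1.30 TPM and 66.5, 67.7 and 75.99 TPM (log2 fold change -5.53, SE 0.50, limma adjusted p = 0.00225).

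No cell cycle gene was higher in brain. Of 17, 16 were tested, 9 were lower in brain and none was higher, with a median of -2.06, beside 11.5% lower among all tested genes. Leaving out 1 liver sample gave 0 higher and 6 to 9 lower. Birc5, which attaches chromosomes to the spindle, was at 3.08 and 1.61 TPM in brain and 61.2, 67.9 and 45.8 TPM in liver (log2 fold change -4.17, SE 0.43, limma adjusted p = 0.00334), and Cdk1 at 3.02 and 0.524 TPM and 66.001, 49.3 and 33.1 TPM (log2 fold change -4.30, SE 0.60, limma adjusted p = 0.00781). Mki67 did not pass, at 0.00281 and 0 TPM in brain and 2.11, 1.88 and 0.764 TPM in liver, and neither did Pcna, at 74.4 and 115 TPM and 133, 86.9 and 173 TPM.

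**Figure D5:**
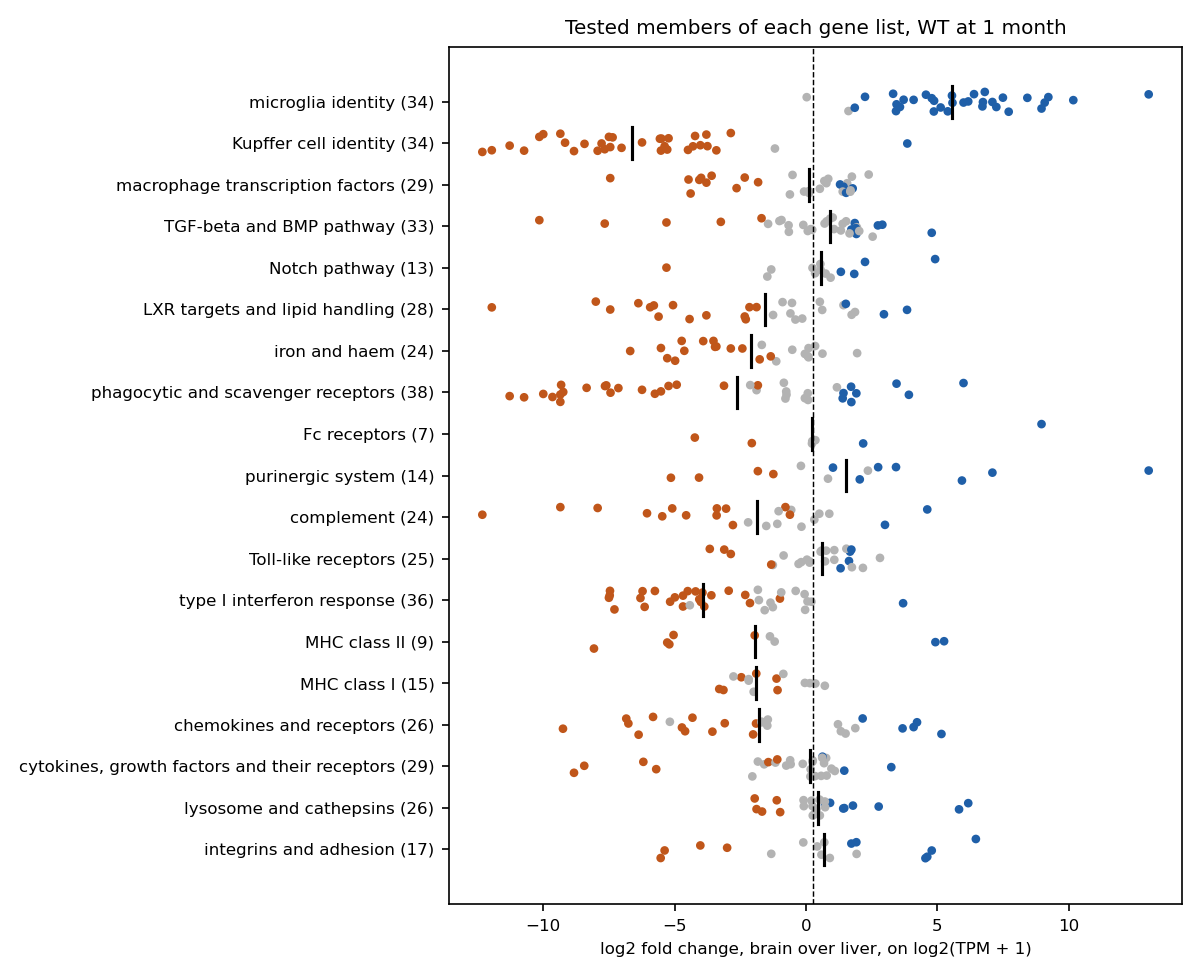
log2 fold change, brain over liver, of the tested members of each list (1 point per gene, with the number of tested genes in brackets), blue where higher in brain, orange where lower and grey where the test was not passed. Black bars mark list medians and the dashed line the median of all tested genes, 0.26; the interferon median of -3.91 is the lowest among the function lists.

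The mutant samples gave a second view of the organ difference, in 3 brain and 3 liver VE samples that the comparison above did not use. The organ comparison in VE tested 13530 genes and called 2853, or 21.1%, of which 1469 (10.9%) were higher in brain and 1384 (10.2%) lower. Of the 3436 genes called in WT, 3279 were tested in VE and 1651 passed in the same direction, which is 48.1% of the WT calls and 57.9% of the VE calls, and 8 passed in the opposite direction. In VE, P2ry12 had a log2 fold change of 7.62, Cst3 of 5.12, Vsig4 of -11.94 and Clec4f of -10.91. Gpr34 stood at 13.05 in WT and 8.61 in VE, with liver levels of 13.8, 28.8 and 19.3 TPM in the VE samples. Ifit3 stood at -7.46 in WT and -3.00 in VE, a difference given here with no test. Its liver VE samples, at 132, 72.7 and 93.9 TPM, were only somewhat below the liver WT values given above. Most of the gap between those fold changes therefore lay in the brain samples.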

How the data were processed

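RNA of sorted macrophages was amplified with SMART-seq V4 and sequenced in pairs on an Illumina HiSeq, per the labels' protocols. The deposited values are TPM per gene, made by the authors. The submitters' processing notes name STAR, mm10 and GRCh38 without roles; which tool and annotation gave the TPM is not given in the sources used here. Repeat columns of a sample were averaged (4 brain and 5 liver columns), and a single column was used for liver WT 5. Genes that reached 1 TPM in 2 or more of the 5 samples were fitted as log2(TPM + 1) with limma 3.58.1 (R 4.3.3), with an intensity trend, 2-sided and Benjamini-Hochberg adjusted over all tested genes at 0.05, after a check on simulated data. Symbols cover 96.4% of genes, and positions are from GENCODE M21 on GRCm38. Depth is unknown, as TPM keep none. Named genes are the 10 largest called fold changes in each direction, the 10 most abundant called genes of each organ with a log2 fold change of at least 4 in size, list members by role, and Braf, Csf1r and Adgre1. The sets of 10 were taken only from called genes that have a symbol and whose brain and liver samples do not overlap. Members and lists were chosen with earlier results of these data known. Alternatives covered the pseudocount, filter, scaling, repeat columns, array weights, the joint fit, the replicate block and each sample left out. Lists were described by counts and medians, with no set test. A few genes are not reported here.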

Additional observations from a re-analysis of the deposited data

Results flagged for a closer look

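The organ difference was larger or smaller in WT than in VE for 4 of the named genes, by a test of the difference itself in a fit of the 4 groups of 1-month samples over all genes, an alternative chosen after seeing the data. The share of all genes that passed this test is not given here, so the 4 genes have no background to be read against. For Gpr34 the log2 fold change, brain over liver, exceeded that in VE by 4.44 (SE 0.42, limma adjusted p = 0.00625); its liver values were 0.0128, 0.321 and 0.0113 TPM in WT and 13.8, 28.8 and 19.3 TPM in VE. For Ifitm3, an interferon-induced gene, the value was -3.00 (SE 0.49, limma adjusted p = 0.0382), and its brain values were 22.8 and 37.1 TPM in WT and 188, 401 and 153 TPM in VE. For Ier3, an immediate early gene, it was -5.01 (SE 0.76, limma adjusted p = 0.0282), with brain values of 0.0640 and 0.104 TPM in WT and 35.3, 13.2 and 18.9 TPM in VE. For Mobp, a myelin gene, it was 5.24 (SE 0.81, limma adjusted p = 0.0291), with brain values of 100.1 and 48.1 TPM in WT and 3.20, 0.195 and 0.438 TPM in VE. The repeat columns of Mobp lay far apart in both WT brain samples, as given above. The 4 genes were picked by this test on the same values, so the gap between genotypes in the values shown adds nothing to it.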

How the results depend on the processing

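Of 190 called genes followed singly, 185 passed with a pseudocount of 0.1 and 185 with 5, 179 under median-ratio scaling, 175 under quantile normalization, 186 with the 4 groups fitted together, 164 with array weights, 117 with the replicate block, 152 with no filter on low values, 164 of the 187 that could be tested with the first repeat column and 151 of 188 with the last, and no call changed direction under any alternative. The calls of Runx1, Cnp, Mylip, P2ry6, Skil, Maml2 and Dtx4 were each lost in 10 to 13 of 17 alternatives. Rbfox3 lost its call in 10 of 16, Klf4 in 9 of 15 and S100a9 in 6 of 12. The total of 3436 calls fell to 1538 with no filter on low values, which tests more genes, to 1630 with array weights and to 2147 with the last repeat column. Calls higher in brain (1940) fell to 856 with no filter, 1273 under median-ratio scaling, 855 with array weights, 1152 with the first repeat column and 868 with the last. Calls lower in brain (1496) fell to 682 with no filter and 775 with array weights. Without 1 sample the total was 1719 to 4515, the higher calls 776 to 2503 and the lower calls 937 to 2106, and 18 to 32 of the microglia identity genes passed. The depth of the libraries is unknown, so counting error could not be given. The genes whose log2 fold change turned sign all missed the threshold as reported. They turned with quantile normalization (Abca1 -0.07, B2m 0.45, Ddx58 -0.61, Hes6 -0.34, Nr1h2 -0.07, Nrros -0.35, Spi1 -0.07 and Tgfb1 -0.30), with last repeat column only (B2m 0.02, C3ar1 0.02, Lrp1 0.44, Ly96 -0.10, Notch1 -1.19, Tgfb1 -1.71 and Tyrobp -0.04), with pseudocount 0.1 (Cbr2 -0.30 and Hes6 -0.10), with first repeat column only (Cbr2 -1.72, Ccl3 -1.51, Ccl4 -2.44, Ddx58 -0.13, Hes6 -0.65, Il1a -0.13, Isg15 0.22, Nr1h2 -1.93, Nrros -1.58 and Rbpj -0.28), with median-ratio scaling (Cd68 -0.36, Ddx58 -0.37, Fcer1g -0.20, Fcgr1 -0.20, Fcgr3 -0.08, Hes6 -0.36, Lamp2 -0.04, Ly96 -0.30, Nrros -0.37, Spi1 -0.33, Tgfb1 -0.21 and Tyrobp -0.37) and with array weights (Lrp1 0.02). Over the fits without 1 sample, the genes that turned ranged as C3ar1 -0.45 to 0.10, Cbr2 -1.79 to 2.82, Ccl3 -0.19 to 3.22, Cd14 -0.39 to 0.05, Ddx58 -0.07 to 0.20, Gpr84 -0.68 to 3.92, Hes6 -2.23 to 2.29, Isg15 -0.89 to 0.79, Lrp1 -0.42 to 0.35, Ly96 -0.03 to 0.32, Notch1 -1.20 to 2.30, Nrros -0.06 to 0.20, Rbpj -0.22 to 2.11, Spi1 -0.40 to 0.61, Tfrc -3.70 to 0.34, Tgfb1 -0.25 to 0.62. The cause of these changes was not tested.

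WT 4 and WT 5 occur in both organs, but the labels do not say that a number marks the same mouse, and deviations of same-numbered samples had a correlation of 0.024, so the numbers were not taken as pairs. A fit with the replicate number as a block, where liver WT 3 has no partner, called 499 genes, 228 higher and 271 lower, with 11 interferon genes lower and Isg15 at 0.13.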

Other observations

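The 2 brain WT samples of 6 months, whose titles carry the term veh that the labels do not explain, were normalized in a table of their own and have no liver counterpart, so their values stand beside those at 1 month with no comparison. Summed over the microglia identity list, TPM was 156000 and 157100 at 6 months and 148900 and 163800 at 1 month. The Kupffer cell identity sum was 4066 and 3078 TPM at 6 months and 1050 and 786.1 TPM at 1 month. Most of the 6-month sum was Lyz2, which is also on the pan-macrophage list. Lyz2 was at 3798 and 2812 TPM at 6 months and 445 and 192 TPM at 1 month. Vsig4, Clec4f and Cd5l were under 1 TPM in both samples of 6 months, while Apoc1 was at 5.93 and 20.7 TPM. The oligodendrocyte sum was 64.8 and 37.5 TPM at 6 months and 439.6 and 264.1 TPM at 1 month. Border-associated macrophage markers summed to 119.5 and 8.93 TPM at 6 months and, as given above, were also uneven between the brain samples of 1 month.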
